A study of Arabidopsis thaliana with 6 samples.

Results

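The library made from 25 pg of total RNA, 1 of 6 libraries in a dilution series of Arabidopsis thaliana RNA, was set against the 50, 75 and 100 pg libraries, which were sequenced on the same date. A gene was placed above or below these 3 libraries when its level at 25 pg lay a factor of 2 or more beyond the nearest of them. Levels are read pairs per 1000000 counted (CPM), scaled between libraries by TMM, and 1 CPM was added before ratios were taken. Of 33602 gene models, 16851 had a mean of at least 1 scaled CPM over the 4 libraries and were tested. At 25 pg, 1056 of them were above the range (6.27% of genes tested), 2822 were below it (16.7%) and 12973 were not beyond the margin.

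The study's methods describe the libraries as dilutions of the same RNA, extracted from whole embryo cotyledons, whereas the labels give the tissue as seed and the series' design text speaks of biological replicates. All were wild type with no treatment, from greenhouse plants for which the labels and the methods give different day lengths, at the developmental stage labelled boyes:6.30. Each amount had 1 library, so the 50, 75 and 100 pg libraries stand in for replicates although they differ in amount, and an exact permutation test of 1 library against 3 cannot give a p below 0.25. A gene outside the range marks a difference between libraries. If the RNA was not the same in all of them, differences between RNA samples are part of it and cannot be told apart from those between amounts.

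The cotyledons of the developing embryo are the seed leaves, in which chloroplasts, an epidermis with its cuticle and later the oil and protein reserves are built. The libraries were made with a SMART-Seq kit, in which an oligo(dT) primer starts the copying of polyadenylated RNA, the reverse transcriptase switches to an added template at the end of the RNA, and the whole cDNA is amplified by PCR. The read counts therefore come after amplification, with no molecular identifiers, so that many read pairs can come from the same original molecule. The intervals below cover counting over genes or reads only.

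The 4 libraries held between 22403342 pairs at 75 pg and 30781753 at 100 pg, with 29124508 at 25 pg. Depth did not follow the number of genes detected, which was 16829 at 25 pg against 18485, 19539 and 19266 at 50, 75 and 100 pg. Thinned to the depth of the 75 pg library, the 25 pg library still had 16564 genes, against 18231, 19539 and 18974. The 100 pg library stood apart in that 80.3% of its parsed pairs were counted, against 89% to 90.9% in the other 3, and in that it held fewer reads of short transcripts. The cotyledon markers for photosynthesis summed to 20451 scaled CPM at 25 pg and to between 16858 and 20051 in the other 3. Those for the epidermis summed to 8409 against 6989 to 8288, and those for embryo regulators to 612 against 465 to 537. Storage protein and oil body genes went the other way, with 118 against 125 to 214. All genes tested also summed higher at 25 pg on this scale, to 1085311 against 940663 to 996567. Of other seed tissues, the 9 endosperm markers summed to 51 scaled CPM at 25 pg against 38.5 to 101, with MEA, MINI3, PHE1 and FWA at 0 in all 4 libraries and most of the sum from ZOU (47.1 against 35.6, 58.6 and 89.4). MYB118, not among these 9, had 59.1 against 5.26, 17.1 and 15.2. From this gene the study proposes endosperm contamination of its epidermis samples. The 10 seed coat markers summed to 147 against 83.1 to 108, with BAN, TT2 and TT10 at 0. MUM4 had 102 against 49.9 to 58.7 and TTG2 32.7 against 22.6 to 49.6. TT8, the 1 seed coat marker above the range, had 12.6 against 1.84 to 4.74, and MUM2 had 0 against 12.3, 0.394 and 0.979. The part of RNA from these tissues in the results was not tested.

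Genes well covered in the other libraries could have no read at all at 25 pg. Of 16888 genes with reads in each of the other 3 libraries, 1556 had none at 25 pg and 2201 had none at 10 pg. Among 9022 genes with at least 10 scaled CPM in each of the 3, 61 had none at 25 pg. In the other direction, 291 genes had reads at 25 pg only, but 153 of these rested on a single pair, and 28 had at least 100 pairs.

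The loss was graded by abundance. Genes were classed by their mean level in the 75 and 100 pg libraries, and the 50, 25 and 10 pg libraries were then read in these classes. At 10 to 30 scaled CPM, which held 5639 genes, 0.55% had no reads at 50 pg (exact 95% interval 0.374 to 0.779), 4.7% at 25 pg (4.16 to 5.28) and 7.39% at 10 pg (6.73 to 8.11). The 25 pg value lay between its neighbours in the dilution series, with intervals that did not overlap. These intervals count genes and do not cover differences between libraries of the same amount, of which each had 1. At 3 to 10 scaled CPM the shares were 7.37%, 21.5% and 29.9%, and at 1 to 3 they were 26.2%, 44.7% and 54.4%. Above 100 scaled CPM no gene was without reads in any of the 3 libraries. For the 1152 genes at 100 to 300 the exact 95% interval of each share reaches up to 0.32%.

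**Figure D1:**
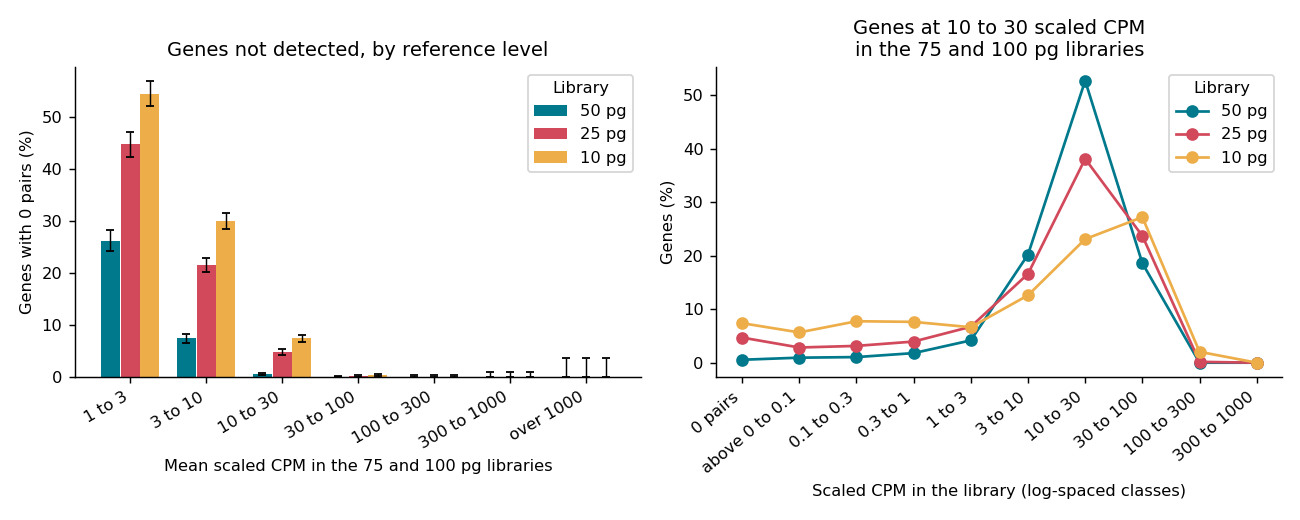
Left, the share of genes with 0 read pairs (%) in the 50, 25 and 10 pg libraries, by the mean scaled CPM of the gene in the 75 and 100 pg libraries, with exact 95% intervals over genes as bars. Right, for the 5639 genes at 10 to 30 scaled CPM in those libraries, the share of genes (%) in each class of level. The peak at 10 to 30 falls from 52.7% of genes at 50 pg to 38.1% at 25 pg and 23.1% at 10 pg, while both tails are higher.

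Levels were spread to both sides of the reference, genes without reads included. In the same class of 5639 genes, the share within a factor of 2 of the reference level was 66% in the 50 pg library, 49.7% in the 25 pg library and 31.3% in the 10 pg library. Levels over 2 times the reference were found for 9.51%, 15.2% and 22.5% of genes, and levels under 0.1 times it for 5.37%, 17.3% and 31.7%. The mean level in the class, which the scaling between libraries bears on, was 19 at 50 pg, 19.3 at 25 pg and 22.2 at 10 pg, against 18.6 in the reference. The SD of the log2 ratio to the reference was 1.17 at 50 pg, 1.71 at 25 pg and 2.18 at 10 pg. Over 16776 genes, Spearman's rho between the 25 pg library and the others was 0.746 with 50 pg, 0.787 with 75 pg and 0.743 with 100 pg. The 3 others gave 0.804 to 0.85 among themselves, as a description across genes that share their libraries.

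Genes outside the range came from the middle and low levels. By the mean over the 4 libraries, the share of genes below the range was 10.5% at 1 to 3 scaled CPM, 32.8% at 3 to 10, 21.2% at 10 to 30, 7.03% at 30 to 100 and 0.681% at 100 to 300. The low share in the lowest class is partly set by the rule, since a gene whose lowest value in the 3 libraries is under 1 scaled CPM cannot fall below it by the margin. The share above ran from 8.65% and 10% in the lowest classes to 7.5%, 3.08% and 0.426%. None of the 390 genes at 300 to 1000 scaled CPM and none of the 116 over 1000 was outside on either side. With a mean of at least 10 scaled CPM required, 563 of 11689 genes were above (4.82%) and 1511 below (12.9%).

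**Figure D2:**
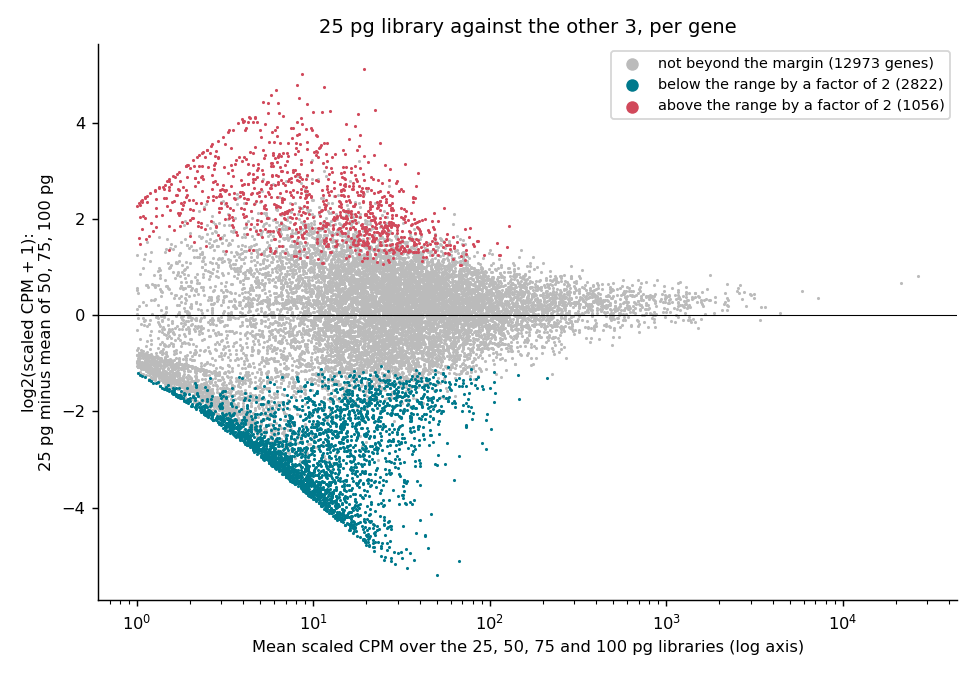
Each point is a gene tested. The x axis is its mean scaled CPM over the 4 libraries (log axis) and the y axis the difference in log2(scaled CPM + 1) between the 25 pg library and the mean of the other 3. The 1056 genes above and the 2822 below the range lie at low and middle levels, and beyond 300 scaled CPM no gene is beyond the margin.

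The rule makes genes below low and genes above high at 25 pg, so their levels there are a description. Of the 2822 genes below, 699 had 0 pairs at 25 pg, 706 had 1 to 9, 825 had 10 to 99 and 592 had at least 100. Their median level was 0.373 scaled CPM at 25 pg and 13.8, 11.9 and 14.6 at 50, 75 and 100 pg. Of the 1056 genes above, 1048 had at least 100 pairs, and their median was 28.4 at 25 pg against 4.4, 5.75 and 5.46. In the 10 pg library the genes below had a median of 4.94 and the genes above one of 0.561. By the same rule against the same 3 libraries, 1757 genes were above (10.5% of 16751 genes tested) and 4420 below (26.4%) at 10 pg. With no margin, 4898 genes lay above the highest and 5876 below the lowest of the 3. Close to the margin, 210 genes were above by a factor of 2.0 to 2.2 and 296 by 1.8 to 2.0, while 240 and 305 were below by these factors. A factor of 8 or more separated 62 genes above and 469 below.

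In edgeR's quasi-likelihood test of the 25 pg library against the other 3, with 2 residual degrees of freedom, 12 genes were higher (0.0712%) and 327 lower (1.94%) at a Benjamini-Hochberg adjusted p under 0.05. These p-values measure how far 1 library lies from the scatter of 3. The calls depended on which of the 3 libraries were kept. Without the 75 pg library edgeR made none in either direction, and without the 50 pg library it made more in both. With 1 library left out only 1 residual degree of freedom remains, so these fits cannot show on which library the calls rest. DESeq2's Wald test called 196 higher and 2576 lower.

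The genes farthest below the range belonged to several cellular processes. AT5G27395, annotated as a Tim44-related protein of the mitochondrial inner membrane translocase (chr5:9671393-9674267, minus strand, TAIR10.1), had 0.596 scaled CPM at 25 pg, from 16 pairs, against 67, 58.2 and 74.2 at 50, 75 and 100 pg and 47 at 10 pg. The 3 other libraries lay close together and the 25 pg library far under them, with a log2 fold change of -6.79 (edgeR adjusted p = 0.0361). UBC33, a ubiquitin-conjugating enzyme that joins ubiquitin to proteins marked for turnover (chr5:20534173-20537117, minus strand), had 0.0746 against 47.1, 30 and 32.3, and 0 at 10 pg. Kin3, a protein kinase, had 0.112 against 74, 31.1 and 30, and 0.0449 at 10 pg. For UBC33 and Kin3 both the 25 and the 10 pg library were near 0, from 2 and 3 pairs at 25 pg.

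Other genes of this group were near 0 at 25 pg but not at 10 pg. AT1G33470, with an RNA-recognition motif, had 0.0746 scaled CPM at 25 pg, 28.4, 29 and 30.9 in the other 3, and 103 at 10 pg. AT1G60610, an S-ribonuclease binding protein family member, had 0.261 against 33.3, 32.1 and 31.8, and 77.3 at 10 pg. Hop2, annotated as a stress-inducible protein, had 0.41 against 33.8, 44.5 and 47.5, and 100 at 10 pg. In these 3 genes the 10 pg library was the highest of the 5 and the 25 pg library the lowest. AT4G38810, a calcium-binding EF-hand protein, had a single pair at 25 pg (0.0373) against 45.4, 30.9 and 25, and SAR1, a synaptobrevin-related protein of vesicle fusion, had 1.53 against 97.2, 107 and 61.3. All 10 genes farthest below had an edgeR adjusted p of 0.0361. The named genes were chosen on the same 4 values that edgeR tested, so their p-values are a description and no separate support.

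Genes with no read at 25 pg included receptors and parts of the transcription machinery. GSO1, a receptor-like kinase needed for an intact embryo cuticle (chr4:10883921-10888270, plus strand), had 0 pairs at 25 pg and 1019, 466 and 1342 at 50, 75 and 100 pg, or 35.5, 20.4 and 41.1 scaled CPM. With 3 counts taken as the floor of the 25 pg library, it was at least 182-fold lower there than in the 75 pg library, the lowest of the 3. At 10 pg it had 238 pairs. AT5G55970, a RING/U-box protein, had 41.6, 27.7 and 30.8 scaled CPM in the 3 libraries and was at least 248-fold lower at 25 pg than in the lowest of them. AT5G19480, annotated as a subunit of Mediator, the complex that joins transcription factors to RNA polymerase II, had 24.1, 26.4 and 37.8 and was at least 215-fold lower by the same measure. AT5G49760, a leucine-rich repeat kinase, had 17, 17.5 and 86.5 and AT1G53450 had 23.8, 57.5 and 15.4, so for them the 3 libraries themselves differed.

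The genes farthest above had a high level at 25 pg and scattered low levels elsewhere. MEE51, of the phosphofructokinase family (chr4:1939113-1943024, plus strand), had 43.6 scaled CPM at 25 pg against 0.174, 1.88 and 0.398 at 50, 75 and 100 pg, with 13.3 at 10 pg. Its log2 fold change was 5.74 (edgeR adjusted p = 0.0493). SSL2, a strictosidine synthase-like protein, had 69.6 against 8.49, 6.87 and 3.7 and also passed the test (edgeR adjusted p = 0.0419). For both, the 25 pg library was the highest of the 5. MEB1, of the vacuolar iron transporter family (chr4:13873797-13876526, plus strand), had 73 scaled CPM against 0.104, 0.831 and 3.86 and missed the threshold (edgeR adjusted p = 0.055).

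Of the remaining genes farthest above, some were also high at 10 pg. PUP12, a purine permease, had 37.2 scaled CPM at 25 pg, between 1.99 and 2.65 in the other 3, and 23.9 at 10 pg. AT4G31450, a RING/U-box protein, had 33.6 against 1.22 to 3.37, and 25 at 10 pg, and AT4G39952, a pentatricopeptide repeat protein, had 43.7 against 0.0696 to 4.74, and 23.3 at 10 pg. AT3G61420, AT3G54460, AT4G02830 and AT2G25190 had 35.7 to 61.4 at 25 pg and no more than 1.12 at 10 pg. These 4 genes were thus high at 25 pg alone, since no other library exceeded 6.93. Of the 10 genes farthest above, MEE51 and SSL2 were the only ones that edgeR called.

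**Figure D3:**
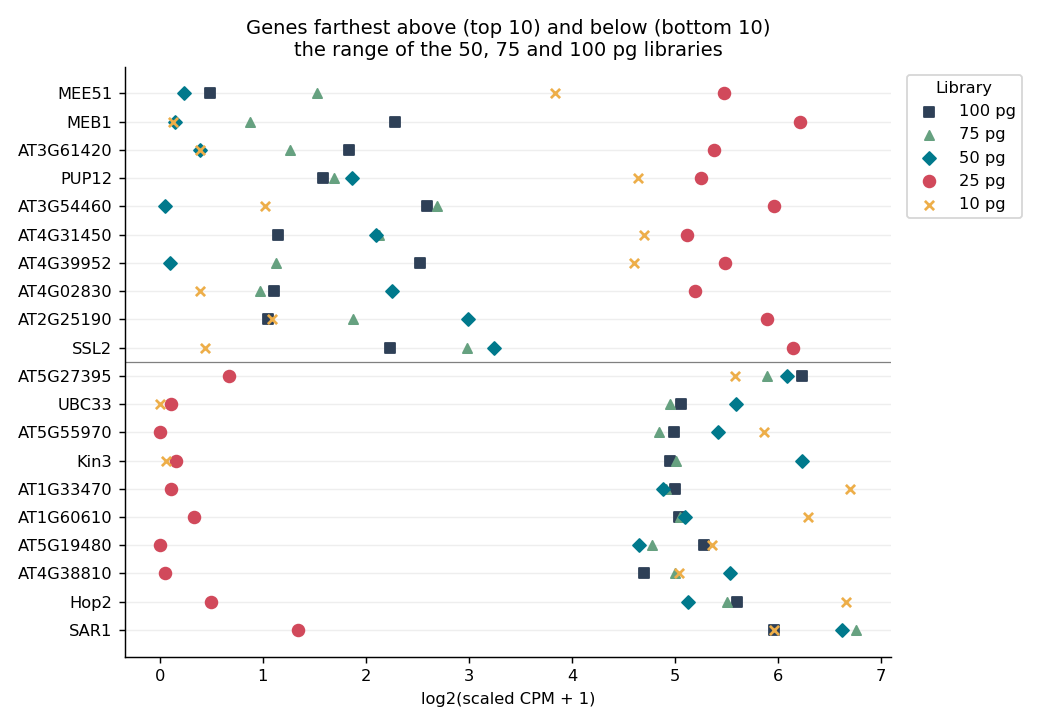
log2(scaled CPM + 1) in the 25, 50, 75, 100 and 10 pg libraries for the 10 genes farthest above (top) and the 10 farthest below (bottom) the range of the 50, 75 and 100 pg libraries, among genes with a mean of at least 10 scaled CPM. Each symbol is 1 library. The 25 pg symbols lie farthest to the right in the top 10, where the 10 pg symbols come near them for some genes, such as AT4G31450 and PUP12. In the bottom 10 the 25 pg symbols lie at or under 1.53 scaled CPM. There the 10 pg symbols are near 0 for UBC33 and Kin3 and at 31.8 scaled CPM or more for the others.

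A few genes were read at 25 pg and in none of the other 3 libraries. WAKL6, a wall-associated kinase-like receptor (chr1:5518219-5520929, plus strand), had 659 pairs at 25 pg and 0 at 50, 75 and 100 pg, with 7 at 10 pg. With 3 counts per library as the floor, its level at 25 pg was at least 187-fold higher, and it passed edgeR's test (adjusted p = 0.0361). The formin AT5G07760, which belongs to a family that nucleates actin filaments, had 424 pairs and 0 in the other 3, the glyoxal oxidase-related AT3G53950 had 403, the receptor-like protein RLP56 had 357 and the glycosyltransferase AT3G21790 had 287. None of these 4 passed edgeR's test (adjusted p between 0.0524 and 0.0778), and at 10 pg they had 0 to 6 pairs. NADP-ME3, a NADP-dependent malic enzyme that was chosen here after its values were seen, had 23.1 scaled CPM at 25 pg, 0.0438 at 75 pg and 0 at 50 and 100 pg (edgeR adjusted p = 0.0361).

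Genes below the range were longer than the rest when levels were counted in reads. The median length of the deposited gene models was 1714 bases for genes below, 1513 for genes above and 1485 for genes not beyond the margin. The share of genes below was 5.78% under 500 bases, 9.45% from 500 to under 1000, 16% from 1000 to under 1500, 20.3% from 1500 to under 2000, 21.1% from 2000 to under 3000 and 20.2% from 4000 on. It was 9.05% under 1000 bases and 20.7% from 2000 bases on, a difference of 11.6 percentage points. The share above varied from 4.76% to 7.95% with no steady course. The GC content had nearly the same median in the 3 groups, 41.5% above, 41.7% below and 41.8% for the rest.

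The 100 pg library was low in short transcripts, which widened the range for them. Among genes at 100 scaled CPM and over, the median log2 ratio of 25 to 100 pg was 1.15 under 500 bases, 0.64 from 500 to under 1000 and -0.81 from 3000 to under 4000. The ratio of 25 to 75 pg stayed between -0.05 and 0.13 in every length class, so at these levels the 25 pg library itself had no length trend against 75 pg. Without the 100 pg library the shares below were 13% and 23.6%, still 10.6 points apart.

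The course with length depended on the scale and on the level class. A long transcript gives more reads per molecule, so levels were also taken per 1000 bases. What part the number of molecules has in the course with length was not tested. Within 10 to 30 scaled CPM, 11.7% of genes under 1000 bases (exact 95% interval 9.63 to 13.9), 22.4% from 1000 to under 2000 and 23.7% from 2000 bases on (21.8 to 25.7) were below the range. Within 10 to 30 scaled CPM per 1000 bases, a scale chosen after the first result was seen, the shares were 14.4% (12.1 to 16.9), 16.1% and 11.1% (9.39 to 13.1). The difference between long and short transcripts was -3.23 percentage points there instead of 12, with intervals that overlapped on the second scale and not on the first. The other classes per 1000 bases with genes below among both short and long transcripts kept the first direction. The share below was 9.61% under 1000 bases (6.43 to 13.7) and 28.2% from 2000 bases on (25.3 to 31.2) at 1 to 3, where the intervals did not overlap. That contrast is partly set by the rule. A gene under 1000 bases in this class has a mean under 3 scaled CPM. If its lowest value in the 3 libraries is under 1 scaled CPM, it cannot be called below. The share below was 25.6% and 27.3% at 3 to 10 and 2.7% and 4.04% at 30 to 100, with intervals that overlapped. The share of genes with no reads at 25 pg was 2.7% under 1000 bases and 5.53% from 2000 bases on at 10 to 30 scaled CPM in the 75 and 100 pg libraries, and 6.19% and 0.551% at 10 to 30 scaled CPM per 1000 bases. On the scale per 1000 bases it was also lower for long transcripts at 1 to 3 (55.1% and 23%) and at 3 to 10 (25.2% and 7.36%).

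**Figure D4:**
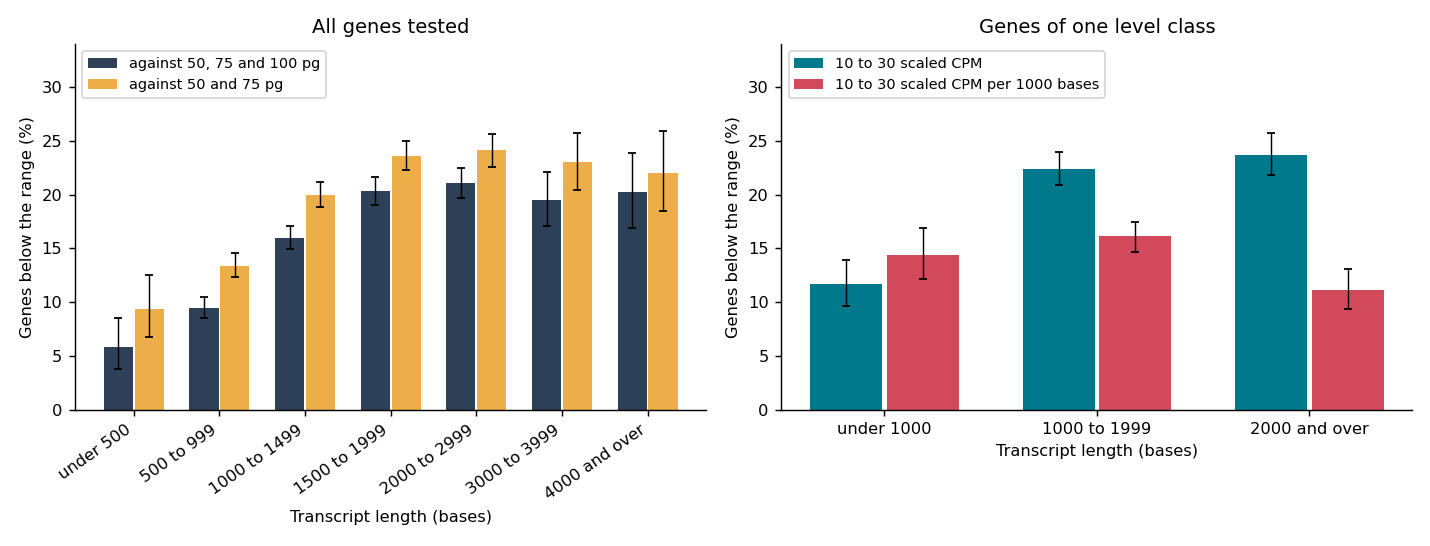
Left, the share of genes tested that lay below the range (%) by transcript length, against all 3 libraries and against the 50 and 75 pg libraries. Right, the same share against all 3 libraries within 10 to 30 scaled CPM and within 10 to 30 scaled CPM per 1000 bases. Bars are exact 95% intervals over genes. The share rises with length from 11.7% to 23.7% on the first scale and is 14.4% for the shortest and 11.1% for the longest on the second, where the bars of these classes overlap.

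The 5 longest and 5 shortest genes were named from each side, so long and short genes on both sides follow from the choice and are a description. BIG, a very large protein of auxin transport with the longest transcript below the range (15465 bases), had 22.4 scaled CPM at 25 pg against 60.5, 50.4 and 68.1. G2484-1, of 6499 bases, had 31.2 against 85, 63.9 and 88.2. MOR1, a microtubule-associated protein with a transcript of 6332 bases, was above instead, at 113 against 54.5, 55.7 and 52. PRT6, a ubiquitin ligase of the N-degron pathway, had 62.4 against 9.22, 16.5 and 30.5. None of these long genes passed edgeR's test (adjusted p between 0.196 and 0.219). Among the shortest genes below were the chloroplast genes ATCG00050, with 0.336 against 14.3, 20.9 and 4.59, and ATCG01120, with 1.86 against 11.8, 15.2 and 14.2. PSK3, the precursor of a phytosulfokine peptide growth factor, had 5.37 against 22.5, 30.9 and 18.8.

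Photosynthesis, the Calvin cycle and ribosomal proteins had no member outside the range. None of 31 photosynthesis genes, 15 Calvin cycle genes or 17 cytosolic ribosomal protein genes was outside the range, where 6.27% of all genes tested were above and 16.7% below, and their median levels over the 4 libraries were 509, 200 and 1281 scaled CPM against 19.6 for all genes. RBCS1A, the small subunit of Rubisco, had 8545 scaled CPM at 25 pg against 8263, 6896 and 5218, and CAB1, a light-harvesting chlorophyll protein, had 4522 against 4587, 3710 and 4881. The 25 pg values were thus close to the range or within it. SBPASE, an enzyme of carbon fixation, was the farthest under the range of the Calvin cycle list, at 92.3 against 164, 119 and 154. The median log2 difference between 25 pg and the mean of the 3 libraries was 0.26 for photosynthesis, 0.15 for the Calvin cycle and 0.2 for ribosomal proteins, beside -0.07 for all genes. With library totals in place of TMM all genes shifted to -0.21 and these lists to 0.1, 0 and 0.04, so only their place relative to all genes can be read.

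Plastid transcription and DNA replication each had 4 members below and none above, of 15 and 19 tested. These shares, 26.7% and 21.1% below, rest on 4 genes each and stand beside 16.7% below and 6.27% above for all genes tested. The median levels of the 2 lists, 51 and 46.2 scaled CPM, were over the 19.6 of all genes tested. In the class of 30 to 100 scaled CPM, 7.03% of all genes were below, and in that of 10 to 30, 21.2%. The genes below in these lists had means in both classes, and SIG5 a lower one, so no single class matches these shares. PTAC3, a protein of the plastid transcription complex, had 6.79 scaled CPM at 25 pg against 49.5, 48.7 and 117. CDT1A, a replication licensing factor, had 1.6 against 22.7, 33.7 and 24, and MCM2, of the replicative helicase, had 9.66 against 57.7, 66.3 and 133. In all 3 genes the 25 pg library was far under the others, and none passed edgeR's test (adjusted p between 0.0534 and 0.0607). Of 19 cell cycle genes, CYCB2;4 was above with 50.1 against 8.56 to 17.4 and CYCD2;1 below with 3.84 against 11.6 to 20.

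Of 10 embryo regulators tested, 8 were not beyond the margin, beside 12973 of all 16851 genes, so the list stood near the background. Among the 8 were FUS3 with 186 scaled CPM at 25 pg against 121 to 214 and LEC1 with 43.5 against 33.7 to 59, transcription factors that direct embryo maturation. MYB118, a factor known from the endosperm, was above, with 59.1 against 5.26, 17.1 and 15.2. The factor bZIP67, a regulator of late seed genes, was below, with 0.746 against 10.7, 16.8 and 12. Of 13 storage protein and oil body genes, 8 had 0 pairs at 25 pg and 8 at 10 pg. The level was too low for 6 of the 13 to be tested, among them CRU2, ATS1, SESA2 and SESA4 with at most 2 pairs in each of the 3 libraries, so the count does not set the 25 pg library apart. The oleosin OLEO2, a coat protein of oil bodies, had 71.7 scaled CPM against 68.4 to 96.9. Related 2S albumin genes went opposite ways: SESA1 had 0 pairs at 25 pg and 337, 146 and 81 at 50, 75 and 100 pg, while SESA5 had 221 pairs and 0, 19 and 4.

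Genes of the epidermis and cuticle, the layer compared with the mesophyll elsewhere in the study, were outside on both sides. Of 19 epidermis genes, 4 were below (21.1%) and 1 above (5.26%), near the 16.7% and 6.27% of all genes tested, and edgeR called 2 of them lower, GSO1 and HDG11. HDG11, a homeodomain transcription factor of the epidermis, had 0 pairs at 25 pg and 8.53, 17 and 12.7 scaled CPM in the others (edgeR adjusted p = 0.0442), and its relative GL2 had 1.16 against 15.1 to 21.1. PDF2, with 98.5 against 210 to 312, was below too, whereas HDG5 was above with 61.8 against 20.5 to 25.6. Of 26 wax and cutin genes, 3 were above and 2 below. CER4, a reductase that makes the primary alcohols of wax, had 252 pairs at 25 pg and 0 in each of the others, also at 10 pg, which was at least 71.6-fold higher with 3 counts as the floor but not called by edgeR (adjusted p = 0.089). CER3, needed for wax alkanes, had 2.39 scaled CPM against 34.6, 52.1 and 60.6 and was called lower (edgeR adjusted p = 0.0361). ABCG11, a transporter of cuticle lipids, had 23 against 95.7 to 176.

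In the stomatal lineage MUTE, which ends the divisions of the lineage, had 16.2 scaled CPM at 25 pg against 1.57 to 4.24, and BASL, a polarity protein of its asymmetric divisions, had 5.82 against 16.4 to 30.1. These were the 2 of 12 tested genes outside the range, 8.33% on each side. Of all genes tested, 6.27% were above and 16.7% below. Of 20 meristem and polarity genes only AS2 was outside (5% above), at 67.1 against 18.4 to 32.1, and at 10 pg it had 68.3. Fatty acid and oil genes had 14.3% below and none above. Among 21 fatty acid and oil genes 3 were below: PDAT, which transfers an acyl group to make oil, had 0.224 against 19.6 to 32.9 (edgeR adjusted p = 0.0361), TAG1 had 35 against 85.9 to 116, and KCS18 had 0 against 3.03 to 4.81.

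Several hormone, light and stress genes were at or near 0 at 25 pg. TMO5, a basic helix-loop-helix factor of vascular initiation, had 0 pairs at 25 pg and 28.1, 13 and 9.55 scaled CPM in the others (edgeR adjusted p = 0.0367), whereas its partner LHW had 4.21 at 25 pg and at most 0.0438 elsewhere in the range. PIN4, an auxin exporter, had 0.373 against 7.9 to 21 and PID, a kinase that acts on these exporters, 98.1 against 26.9 to 36.9. The 15 auxin genes had 2 on each side (13.3%), beside 6.27% above and 16.7% below for all genes tested. Of 23 abscisic acid and gibberellin genes, 3 were below (13%) and 1 above (4.35%). ABA2 of abscisic acid synthesis had 0 against 14, 8.97 and 5.78, and GASA1, the gene above, had 128 pairs against none. Clock and light signalling had 5 of 20 genes below and none above, among them PIL5 with 0.0373 against 8.48 to 27.8, and the photoreceptor CRY1 with 2.95 against 14.5 to 21.4. Stress and handling genes had 6 of 19 below and none above, for example the cold-response factor CBF3 with 0.298 against 9.15 to 24.7. The share below was 31.6% in the stress list and 25% in the clock and light list against 16.7% of all genes tested, on 6 and 5 genes. Their median levels, 17.6 and 18.6 scaled CPM, were close to the 19.6 of all genes tested. In the class of 10 to 30 scaled CPM, 21.2% of all genes were below.

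Small RNA genes had 3 of 19 below (15.8%, beside 16.7% of all genes tested), of which edgeR called HEN1, the methyltransferase of plant small RNAs, at 0.0746 scaled CPM against 17.9, 16.7 and 30.7 (adjusted p = 0.0361). CLF, a Polycomb histone methyltransferase, was the 1 gene below of 11 tested, at 3.43 against 13.3 to 24.6, and KOR1, an endoglucanase of cellulose synthesis, the 1 below of 10, at 12.3 against 39.3 to 72.8. Very large proteins, with a median length of 6747 bases, had 2 of 27 below, BIG and the vesicle traffic regulator GN (3.54 against 19.2 to 29.9). Each of these last 3 lists had a lower share below than the 16.7% of all genes, on 1 or 2 genes. The median level of very large proteins, 33.4 scaled CPM, lies in the class of 30 to 100. There 7.03% of all genes were below, close to the 7.41% of this list. The medians of the Polycomb and cellulose lists, 22.3 and 27.1, lie in the class of 10 to 30, in which 21.2% were below. Of 11 reference genes used for normalization in qPCR, PP2AA3 alone was outside, with 2.31 against 18.9, 41.8 and 66.2, and 51.1 at 10 pg. The others were not beyond the margin, with ACT2 the farthest over the range at 275 against 194 to 216.

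**Figure D5:**
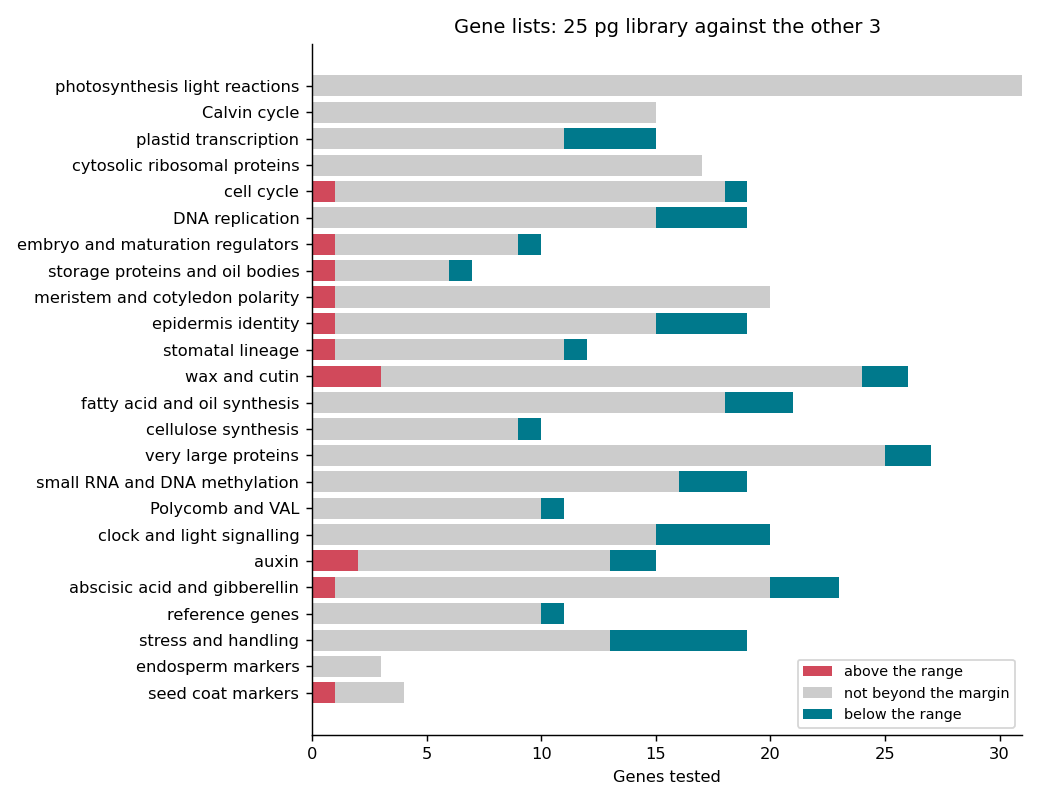
For each of 24 gene lists, the number of genes tested that were above the range of the 50, 75 and 100 pg libraries at 25 pg (red), not beyond the margin (grey) and below it (blue). The lists for photosynthesis, the Calvin cycle and ribosomal proteins have none outside, and stress and handling has 6 of 19 below.

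Families grouped by their annotated product, chosen after the counts were seen, were described in the same way. Over families with at least 40 genes tested, the share above ran from 2.86% to 13.6% beside 6.27% of all genes, and the share below from 12.5% to 31.9% beside 16.7%. ARM repeat proteins had the lowest share below, 12 of 96, and phosphatases of the 2C family the highest, 15 of 47. Protein kinases had 12 of 209 above and 51 below (24.4%). The median levels of the ARM repeat, phosphatase and kinase families were 17, 13.5 and 12.5 scaled CPM. These lie in the class of 10 to 30, in which 21.2% of all genes were below. Pentatricopeptide repeat proteins, which bind organelle RNA, had 17 of 150 genes above (11.3%) and 37 below (24.7%). Their median level of 6.53 scaled CPM lies in the class of 3 to 10, in which 10% of all genes were above and 32.8% below.

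The most abundant gene models at 25 pg included several with long runs of A or T. Of the 10 highest gene models, AT5G18610 (38069 scaled CPM), AT2G30230 (28728), AT4G31570 (3773) and AT2G23880 (3643) hold a run of at least 30 A or T. The run is of T on the transcript's strand in the first 3 and of A in AT2G23880. Such gene models took 8.11% of the pairs in the 25 pg library, 3.57%, 6.5% and 7.93% in the 50, 75 and 100 pg libraries and 7.11% in the 10 pg library. The 25 pg library was the highest and the 50 pg library stood apart as low, and none of the 10 such genes tested was beyond the margin. They had 938 scaled CPM or more at 25 pg. At such levels no gene was beyond it, of 390 at 300 to 1000 scaled CPM and 116 over 1000, so the count is that of the background. AT5G18610 had 13352, 25196 and 30628 scaled CPM at 50, 75 and 100 pg, so the 25 pg value lay over all 3 by less than a factor of 2. The stretches around the run are printed for 3 gene models with a run of A, from the RefSeq TAIR10.1 genome by coordinates, 5′ to 3′ on the gene's strand, with the run in capitals. They were chosen after their values were seen, to show what a run of A looks like in a gene model, and no run of T is printed.
AT1G42140, chr1:15737661-15737752, minus strand, no coding sequence annotated, 2580 scaled CPM at 25 pg against 1144, 2193 and 2665: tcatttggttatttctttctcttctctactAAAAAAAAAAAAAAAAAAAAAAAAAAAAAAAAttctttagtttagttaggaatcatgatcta
AT2G23880, chr2:10167041-10167132, minus strand, no coding sequence annotated, 3643 scaled CPM at 25 pg against 1757, 3108 and 3473: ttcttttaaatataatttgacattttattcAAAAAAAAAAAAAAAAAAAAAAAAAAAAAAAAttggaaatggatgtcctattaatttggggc
AT3G52700, chr3:19538342-19538403, minus strand, coding, 3430 scaled CPM at 25 pg against 1619, 2809 and 3214: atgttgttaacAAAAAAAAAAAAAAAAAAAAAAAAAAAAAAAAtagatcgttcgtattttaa
All 3 runs are 32 bases long, and the levels rank the libraries alike in that 50 pg is the lowest. What part the runs have in these levels was not tested.

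Of 104 genes named by the selection rules, 28 overlap another annotated gene, among them GSO1, MEB1, PUP12, AT5G19480, AT1G33470, AT1G53450, AT3G54460 and Hop2. The libraries were not stranded, so reads of overlapping genes cannot be told apart by strand, although pairs that matched several genes were not counted.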

How the data were processed

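After quality trimming and removal of ribosomal reads, the authors mapped read pairs with Bowtie2 (local option) onto the 33602 representative gene models of TAIR10, and the deposited values are raw counts of pairs whose 2 reads both matched a single gene. The submitters' processing notes also name TopHat2, with no role given. The deposited length column was used, and the count of single reads served only as a check. TMM factors came from edgeR 4.0.16 in R 4.3.3, and DESeq2 1.42.0 gave alternatives. Tables were made in Python 3.11.15 (pandas 2.3.3, NumPy 2.4.6, SciPy 1.17.1) and plots with matplotlib 3.10.9. The 5 ng library, from another date, was not used, and the 10 pg library was put on the same scale. Share intervals are exact Clopper-Pearson 95% intervals over genes. The edgeR script was tested on simulated data.

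Named genes were those farthest outside the range (10 each way, mean of at least 10 scaled CPM), the 5 highest with 0 counts at 25 pg or in the other 3, the 5 longest and 5 shortest on each side, the 10 highest at 25 pg and the extremes of each of 24 lists. The members, lists and rules were chosen with earlier results of these data known. Symbols matched 435 of 441 list entries, and 32835 gene models matched RefSeq's annotation. Coordinates and sequences are RefSeq's for TAIR10.1.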

Additional observations from a re-analysis of the deposited data

How the results depend on the processing

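Margins of a factor of 1.5 and 4 gave 2054 and 256 genes above, and a factor of 4 gave 1375 below. A mean of at least 10 scaled CPM left 563 above and 1511 below. Leaving out 1 of the 3 libraries gave 1516 to 1615 above and 3288 to 3680 below. In edgeR the same step gave 0 to 163 higher and 0 to 1263 lower, with 0 and 0 without the 75 pg library. With no filter 36 were higher, with the log2 amount as covariate 88, and without gene models holding a run of at least 20 A or T 7. DESeq2 called 196 higher and 2576 lower. The share of genes without reads at 25 pg was 6.35% with classes from the 100 pg library alone, and 11% had under 10 pairs. The difference by length was 6.2 points at a factor of 4, 13.1 at a mean of at least 10, 10.6 to 16.1 with a library left out, and -3.23 within 10 to 30 scaled CPM per 1000 bases, the only class on that scale where long transcripts had the lower share. That scale, the level class and the set without runs were chosen after seeing the data. Of 75 named genes outside the range, 48 kept their side and margin under every alternative, and none changed side. No paired analysis was possible because each amount has 1 library. Thinning to the smallest total gave 1049 genes above and 2848 below.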
